A study of Homo sapiens with 25 samples.

Results

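The mitotic kinesins described here are 10 motor proteins of the mitotic spindle and its midzone: KIF20A, KIF20B, KIF23, KIF11, KIF14, KIF18A, KIF18B, KIF2C, KIF4A and KIFC1. They were chosen by name and found by NCBI Gene number among the 28395 gene IDs of the count table. All 10 were present, and all 10 passed the filter on low counts, which left 14658 genes for testing.

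Kinesins use ATP to walk along microtubules or to take microtubule ends apart, and in mitosis they build the bipolar spindle, align chromosomes and organise the midzone at which the cell divides. Transcripts of many mitotic kinesins are made late in the cell cycle. The MMB complex, in which B-MYB (MYBL2) joins the MuvB core, and the transcription factor FOXM1 are known activators of such late genes. The MuvB subunit LIN54 binds a short promoter element called the cell cycle genes homology region (CHR), and the factor NF-Y binds the CCAAT box that often lies upstream of it.

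RNA was measured in A549, an established human lung carcinoma line, whose growth description names an auxin-inducible degron (mAID) on TRRAP. That large scaffold protein belongs to SAGA and TIP60, which acetylate histones. Per that description all groups came from the tagged cells. They were held in 2 mM thymidine for 20 h, washed and released into fresh medium for 4 h, a schedule that the series text describes as S-phase synchronisation. The 4 groups of 3 libraries were DMSO, prexasertib for 3 h, 5-Ph-IAA at 1 µM for 6 h, and the combination of both drugs. Prexasertib inhibits the checkpoint kinase CHK1, and 5-Ph-IAA is the auxin analogue that triggers degradation of a degron-tagged protein. The genotype field of these samples reads WT beside a growth description of the mAID cells, and the unit of the prexasertib dose differs between RNA and chromatin samples, so the groups follow the sample titles and no prexasertib dose is given. A degron acts on the protein, so the TRRAP transcript does not check the labels. Levels of TRRAP protein, cells without the degron that received 5-Ph-IAA, and the 13 chromatin (CUT&RUN) samples were not analysed here. Whether the libraries of a group came from separate cultures or whether the line was 1 clone is not stated, so a p-value here measures spread between samples that may be technical.

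Total counts per library lay between 10830048 and 17789482, and the members had between 538 and 5977 counts in a library. Replicates numbered 1 and 2 of a group differed by a chi-square per degree of freedom of 2.25 to 3.97, and the replicate numbered 3 differed from them by 13.1 to 19.7, in all 4 groups. Among the members the libraries numbered 3 were lower in KIF20B, KIF14 and KIF18A in 4 of 4 groups and higher in KIF20A, KIF23, KIF2C and KIF4A in 4 of 4 groups. What sets these libraries apart was not tested. Where a replicate block, which removes a shared shift of same-numbered libraries, changed a call of a member, its value is given beside the result. KRT8 and KRT18, keratins of simple epithelium, stood at group means of 2798 to 3607 and 1768 to 2392 CPM (counts scaled to a common library size). The epithelial adhesion gene EPCAM was low, at 0.652 to 1.06 CPM. Group means of the blood cell markers PTPRC, CD3E and LYZ did not exceed 0.219 CPM, and DCN, a fibroblast marker, had a group mean of 0 in all 4 groups. Of 10 markers of other cell types 2 passed the count filter and 0 were called in any comparison, with the collagen gene COL1A1 at group means of 30.3 to 34.7 CPM. With 5-Ph-IAA against DMSO these 2 had log2 fold changes of -0.07 and 1.23. Of 5 epithelial markers 1 was called lower in that comparison (range -0.39 to 0.68), against 12.2% of all genes.

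The promoters are shown first, because they are where the regulators named above are known to act. Sequences come from RefSeq (GRCh38.p14). The search covered 250 bases before to 50 bases from each annotated start on both strands, for the CHR (TTTGAA or TTCGAA), the CCAAT box (CCAAT) and an E2F core (TTCCCGC or TTGGCGC). An E2F core of the second form can overlap a reversed CCAAT box, and none did so among the members. A CHR was present in 8 of 10 members, against 16.4% of all 35116 promoters in the table. A CCAAT box was present in 9 of 10 members, against 34.6%, and an E2F core in 2 of 10, against 9.23%. Both a CHR and a CCAAT box were present in 8 of 10 members, in 6.38% of all promoters and in 4 of the 25 other kinesins with a promoter in the table. These are matches of letters and not evidence of binding.

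The windows below run from 100 bases before to 10 bases after the start on the strand of the gene, with CHR and CCAAT matches in capitals (TTCAAA and ATTGG are matches on the other strand). They show the kinesin-6 genes KIF20A, KIF20B and KIF23 and the kinesin-8 genes KIF18A and KIF18B, whose members are compared with each other further on, and KIF2C, which had neither motif. KIF20A is at chr5:138179012-138179121, plus strand. KIF23 is at chr15:69414249-69414358, plus strand. KIF20B is at chr10:89701490-89701599, plus strand, with a second stretch at chr10:89701610-89701629 that lies 21 to 40 bases after the start and holds its CHR letters. KIF18A is at chr11:28108147-28108256, minus strand. KIF18B is at chr17:44947764-44947873, minus strand. KIF2C is at chr1:44739737-44739846, plus strand.
KIF20A: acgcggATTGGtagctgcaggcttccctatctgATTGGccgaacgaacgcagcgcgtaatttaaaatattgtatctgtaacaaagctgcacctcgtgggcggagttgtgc
KIF23: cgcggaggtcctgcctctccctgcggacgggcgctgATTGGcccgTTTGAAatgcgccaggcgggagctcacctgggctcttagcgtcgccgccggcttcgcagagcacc
KIF20B: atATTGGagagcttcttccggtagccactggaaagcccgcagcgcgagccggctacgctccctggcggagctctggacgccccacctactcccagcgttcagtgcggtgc
KIF20B after the start: attgTTTGAATTTGAAaacg
KIF18A: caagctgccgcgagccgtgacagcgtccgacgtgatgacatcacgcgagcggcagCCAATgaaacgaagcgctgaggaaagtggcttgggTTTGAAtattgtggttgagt
KIF18B: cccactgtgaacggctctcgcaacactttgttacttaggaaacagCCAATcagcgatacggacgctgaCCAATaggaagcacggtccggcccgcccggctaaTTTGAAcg
KIF2C: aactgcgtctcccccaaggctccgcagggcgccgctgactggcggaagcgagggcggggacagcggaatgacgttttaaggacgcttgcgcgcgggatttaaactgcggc

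KIF20A carried 2 reversed CCAAT boxes, 63 to 67 and 90 to 94 bases before the start, and no CHR letters as searched. KIF23 carried a reversed CCAAT box 60 to 64 bases before the start and a CHR 50 to 55 bases before it. The windows of KIF11, KIF14, KIF4A and KIFC1, which are not printed, also held both motifs. That of KIFC1, at chr6:33391723-33391832, lies around an annotated start inside the gene, which begins at 33391461. The absence of a motif says only that these letters are not in this window.

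**Figure D1:**
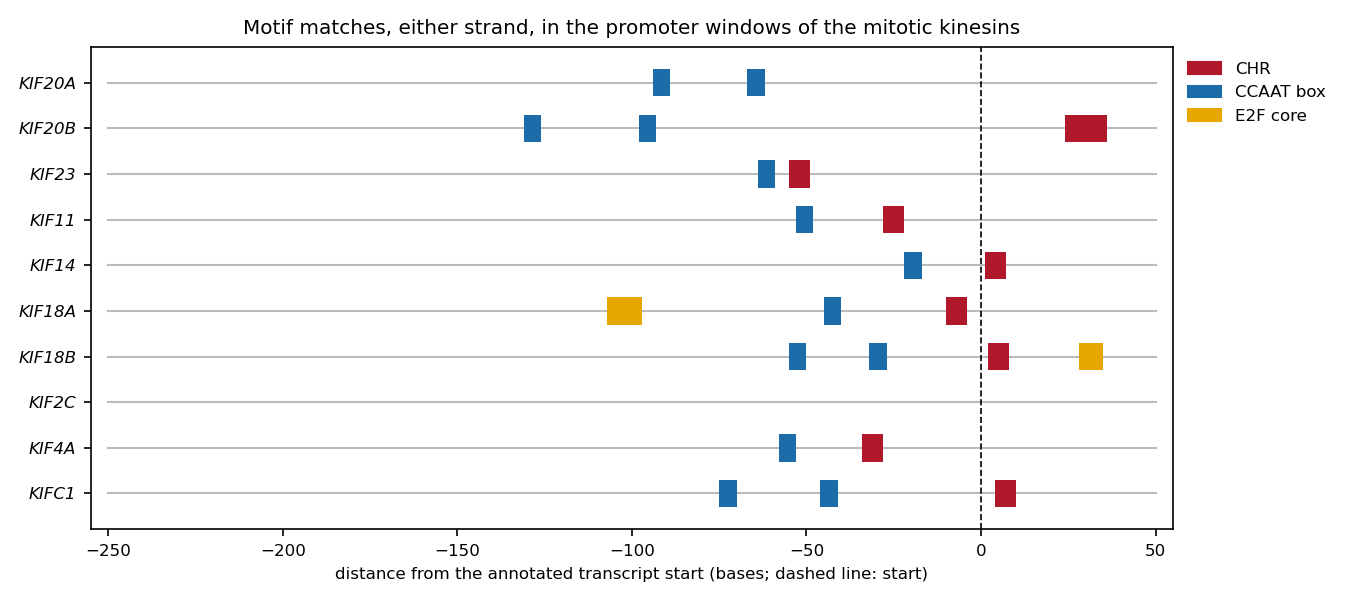
Position of each motif match along the promoter window of each member, in bases from the annotated transcript start (dashed line). Red blocks are CHR matches, blue blocks CCAAT boxes and yellow blocks E2F cores, on either strand. KIF2C shows no block, and KIF20A shows 2 CCAAT boxes and no CHR.

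The members shared their highest and lowest groups. All 10 had their highest group mean in prexasertib and their lowest in 5-Ph-IAA, with DMSO and both drugs between them. The mean with both drugs was below that in DMSO in 9 of 10 and above it in KIF18A. CPM are not scaled by transcript length, so levels are compared within a gene and not between genes. After prexasertib alone, 8 of 10 members rose and 0 fell by the edgeR test at an adjusted p under 0.05, against 2.36% of all tested genes called higher. The 3 prexasertib libraries lay above the 3 DMSO libraries in 9 of 10, against 9.78% of all genes. The median log2 fold change of the members was 0.63, against 0.00 over all genes. After 5-Ph-IAA alone, 8 of 10 fell and 0 rose, against 12.2% of all genes called lower, and in 9 of 10 the groups did not overlap, against 18.9% of all genes. The median was -0.83 against 0.01. KIF14 and KIF20B were the members not called in either comparison. With the replicate block all 10 members rose with prexasertib (8.37% of all genes called higher) and all 10 fell with 5-Ph-IAA (23.6% of all genes called lower). In bulk RNA, fewer cells in the late cell cycle and less RNA per such cell cannot be told apart.

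Scaling bears on these directions, because the composition factors of the libraries without 5-Ph-IAA (0.925 to 0.978) and with it (1.02 to 1.10) did not overlap. When libraries were scaled by size alone, the median of all genes for 5-Ph-IAA against DMSO moved to 0.16 and the calls over all genes from 1414 higher and 1787 lower to 3018 higher and 986 lower. Under that scaling 8 of 10 members were still called lower with 5-Ph-IAA (6.73% of all genes), and 7 of 10 higher with prexasertib (2.01%).

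**Figure D2:**
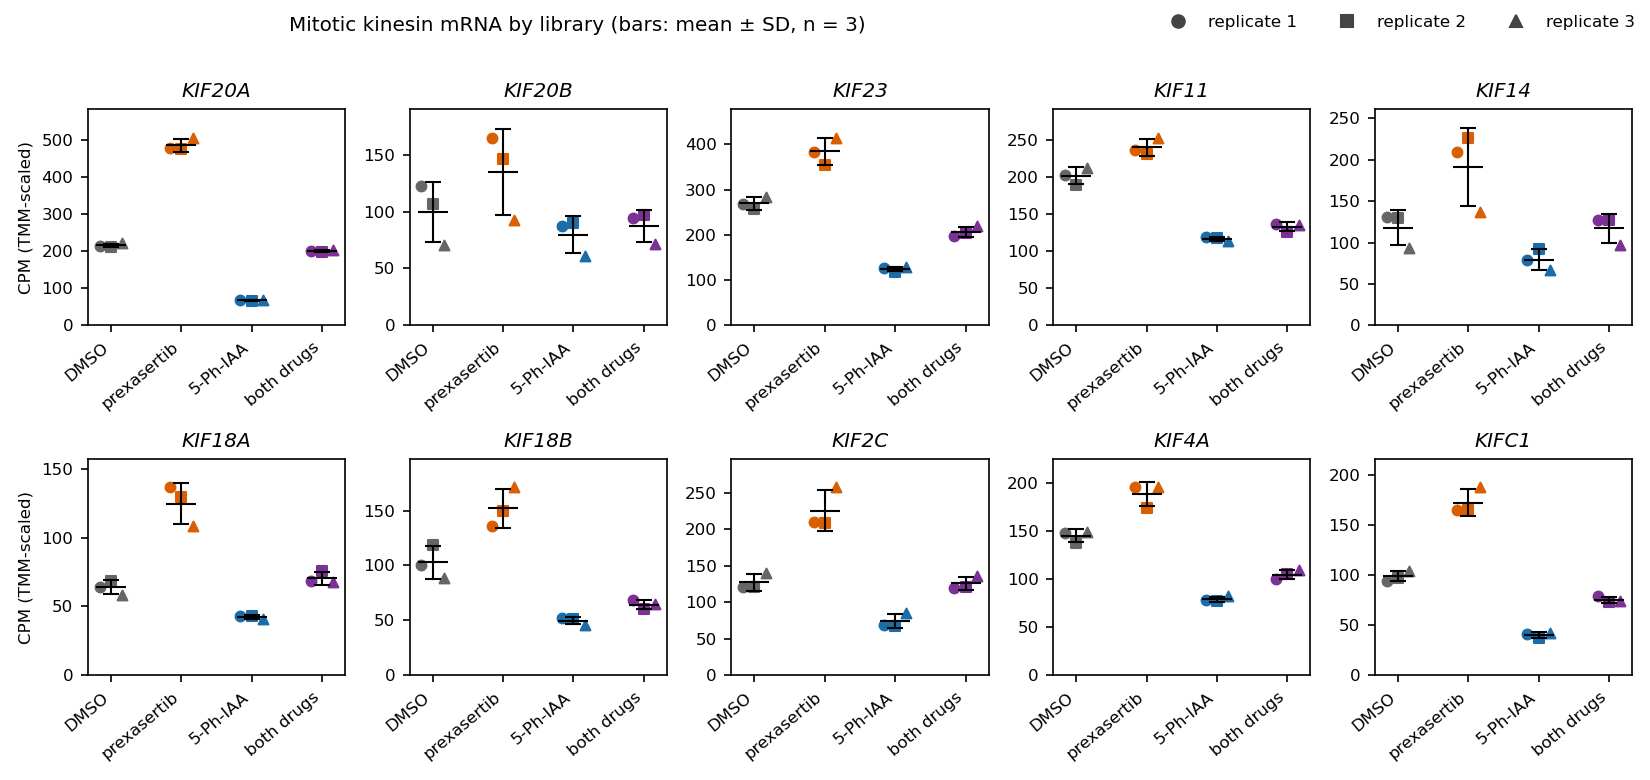
Level of each member in CPM (TMM-scaled) in the 12 libraries, 1 panel per gene with its own axis from 0. Symbols are replicate numbers, and bars are the mean ± SD over 3 libraries. KIF20A spans from 65.0 CPM with 5-Ph-IAA to 506 CPM with prexasertib, and the triangles of KIF20B and KIF14 lie below the other symbols in each group.

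The first set of members builds the midzone and drives cytokinesis. KIF20A (MKLP2; NCBI Gene 10112, chr5:138179112-138187723) carries the chromosomal passenger complex to the midzone in anaphase. Its 3 DMSO libraries stood at 214, 211 and 221 CPM, the prexasertib libraries at 477, 474 and 506, the 5-Ph-IAA libraries at 67.5, 65.0 and 68.6, and the libraries with both drugs at 201, 197 and 203. No group overlapped another. KIF20A rose with prexasertib by a log2 fold change of 1.17 ± 0.0587 (SE; 2.26-fold, adjusted p = 2.92e-07). With 5-Ph-IAA it fell to 31.1% of the DMSO level (-1.68 ± 0.0604, adjusted p = 3.73e-09), the 19th lowest log2 fold change of the 14658 genes tested. Adding prexasertib to 5-Ph-IAA raised it 2.99-fold (1.58 ± 0.0603, adjusted p = 8.47e-09), the 17th highest of that comparison. Adding 5-Ph-IAA to prexasertib lowered it to 41.2% (-1.28 ± 0.0588, adjusted p = 9.83e-08). The gene shares 74 bases with CDC23 at 1 end, and no source used here gives the strand setting of the counting, so reads in that stretch could have come from either gene.

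KIF23 (MKLP1; Gene 9493, chr15:69414349-69448427) forms centralspindlin with RACGAP1, which bundles the midzone microtubules. It stood at 267, 257 and 284 CPM in DMSO, 384, 355 and 415 under prexasertib, 126, 119 and 128 under 5-Ph-IAA, and 198, 203 and 219 under the combination, again with no overlap between groups. It rose 1.43-fold with prexasertib (log2 fold change 0.51 ± 0.0740, adjusted p = 0.0015) and fell to 46.2% with 5-Ph-IAA (-1.12 ± 0.0752, adjusted p = 9.49e-07). With both drugs it remained below DMSO, at 76.8% (-0.38 ± 0.0742, adjusted p = 0.00224). An antisense RNA, KIF23-AS1, overlaps the gene and had no row in the count table.

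KIF20B (MPP1; Gene 9585, chr10:89701590-89774934), a relative of KIF20A that acts late in cytokinesis, was the member with the widest spread within groups. Its libraries stood at 122, 107 and 70.9 CPM in DMSO, 165, 146 and 92.9 under prexasertib, 87.5, 90.3 and 60.9 under 5-Ph-IAA, and 94.7, 97.1 and 71.6 under the combination. The groups overlapped in every comparison, and the library numbered 3 was the lowest of each group. None of its log2 fold changes passed the test: 0.43 ± 0.251 with prexasertib (adjusted p = 0.434), -0.33 ± 0.252 with 5-Ph-IAA (adjusted p = 0.398) and -0.62 ± 0.252 for both drugs against prexasertib (adjusted p = 0.118). Within each replicate number the change was nearly the same size with prexasertib, from 0.39 to 0.46 on the log2 scale, and from -0.48 to -0.22 with 5-Ph-IAA. With the replicate block the values were 0.43 (adjusted p = 1.93e-06), -0.32 (adjusted p = 0.000118) and -0.60 (adjusted p = 3.41e-10). For both drugs against DMSO the value was -0.19 (adjusted p = 0.646) without the block and -0.17 (adjusted p = 0.0339) with it. With 1 library left out the prexasertib value ranged from 0.24 (without DMSO replicate 3) to 0.65 (without prexasertib replicate 3), and the 5-Ph-IAA value from -0.52 (without DMSO replicate 3) to -0.16 (without DMSO replicate 1). Both drugs against prexasertib ranged from -0.83, which passed the test without prexasertib replicate 3 (adjusted p = 0.042), to -0.45 (without prexasertib replicate 1). By DESeq2 on all libraries without a block that comparison passed, at -0.63 (adjusted p = 0.0361). The value for both drugs against DMSO ranged from -0.39 to -0.02.

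KIF14 (Gene 9928, chr1:200551497-200620751), which brings citron kinase to the midbody, was another member with a low library numbered 3. It stood at 131, 129 and 93.4 CPM in DMSO, 210, 227 and 137 under prexasertib, 78.7, 91.9 and 66.7 under 5-Ph-IAA, and 127, 127 and 96.6 under the combination. All 3 prexasertib libraries lay above all 3 DMSO libraries and all 3 5-Ph-IAA libraries below them, while DMSO and both drugs overlapped. The log2 fold changes were 0.70 ± 0.200 with prexasertib (adjusted p = 0.0774) and -0.57 ± 0.202 with 5-Ph-IAA (adjusted p = 0.0637), which missed the threshold. Under the replicate block they were 0.69 (adjusted p = 1.9e-12) and -0.57 (adjusted p = 2.48e-10). Both also passed by DESeq2 without a block (adjusted p = 0.00619 and 0.0166) and by edgeR without prexasertib replicate 3 (0.0172 and 0.027). The 5-Ph-IAA value passed by edgeR without DMSO replicate 3 (adjusted p = 0.034) and with only the groups compared (0.043). Against prexasertib, KIF14 fell with both drugs to 61.1% (-0.71 ± 0.200, adjusted p = 0.0296). That call was lost without any 1 of prexasertib replicates 1 and 2 or both-drug replicates 1, 2 and 3, at adjusted p-values of 0.0548 to 0.103.

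KIF4A (Gene 24137, chrX:70290104-70420886) is a chromokinesin that works with PRC1 to set the length of the midzone. It stood at 148, 137 and 150 CPM in DMSO and at 196, 174 and 196 with prexasertib. The 5-Ph-IAA libraries were lower, at 78.1, 76.9 and 82.1, and the libraries with both drugs lay at 99.7, 105 and 110, so that no groups overlapped. KIF4A rose 1.30-fold with prexasertib (0.38 ± 0.0697, adjusted p = 0.00715) and fell to 54.5% with 5-Ph-IAA (-0.88 ± 0.0707, adjusted p = 2.89e-06). Its near-identical retrocopy KIF4B had 308 counts over all libraries, 1.56% of the 19698 of KIF4A. How reads that fit both were counted is not known, so both values are uncertain to that extent.

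The second set holds the pole-separating motor KIF11 and the minus-end motor KIFC1, which act against each other on antiparallel microtubules. KIF11 (Eg5; Gene 3832, chr10:92593130-92655395) stood at 203, 190 and 213 CPM in DMSO, 237, 232 and 254 under prexasertib, 119, 118 and 114 under 5-Ph-IAA, and 138, 126 and 136 under the combination. It had the smallest prexasertib response of the 10, 1.19-fold (0.25 ± 0.0663, adjusted p = 0.044), and fell to 57.9% with 5-Ph-IAA (-0.79 ± 0.0670, adjusted p = 4.4e-06). The prexasertib call was lost when any of 9 of the 12 libraries was left out (all but DMSO replicate 3, 5-Ph-IAA replicate 3 and both-drug replicate 3), at adjusted p-values of 0.055 to 0.169 and log2 fold changes of 0.21 to 0.28. When prexasertib was added to 5-Ph-IAA the groups did not overlap and the log2 fold change was 0.19 ± 0.0669 (adjusted p = 0.197 without and 0.0145 with the replicate block).

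KIFC1 (HSET; Gene 3833, chr6:33391461-33409896) clusters spindle poles. It stood at 94.3, 97.0 and 104 CPM in DMSO, 164, 164 and 187 under prexasertib, 40.7, 36.6 and 41.9 under 5-Ph-IAA, and 78.4, 72.8 and 73.5 under the combination, with no overlap between groups. KIFC1 rose 1.75-fold with prexasertib (0.80 ± 0.0782, adjusted p = 7.63e-05). It fell to 40.3% with 5-Ph-IAA (-1.31 ± 0.0809, adjusted p = 4.8e-07), the second largest fall among the members after KIF20A. Of the members, KIFC1 followed the mean pattern of the other 9 most closely, with a Pearson r of 0.986 across the 12 libraries, and KIF20B least, with 0.663. Groups and library numbers set these correlations together, and they are given as a description.

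The third set acts on microtubule ends. KIF18A (Gene 81930, chr11:28020619-28108156) damps the movements of chromosomes and aligns them, and KIF18B (Gene 146909, chr17:44924711-44947773) shortens astral microtubules. KIF18A stood at 64.2, 68.8 and 58.7 CPM in DMSO, 137, 130 and 109 under prexasertib, 42.9, 43.3 and 40.8 under 5-Ph-IAA, and 68.2, 75.7 and 67.6 under the combination. It rose 1.96-fold with prexasertib (0.97 ± 0.0940, adjusted p = 7.63e-05), second to KIF20A, and fell to 66.3% with 5-Ph-IAA (-0.59 ± 0.0954, adjusted p = 0.000714). KIF18B stood at 100.5, 119 and 88.8 CPM in DMSO, 136, 150 and 171 under prexasertib, 51.6, 51.6 and 45.7 under 5-Ph-IAA, and 68.4, 60.1 and 64.5 under the combination. It rose 1.48-fold with prexasertib (0.57 ± 0.110, adjusted p = 0.00977) and fell to 48.4% with 5-Ph-IAA (-1.05 ± 0.113, adjusted p = 3.4e-05). In both drugs against 5-Ph-IAA its libraries did not overlap, with 0.37 ± 0.113 (adjusted p = 0.115).

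KIF2C (MCAK; Gene 11004, chr1:44739837-44767767) is a depolymerase that corrects faulty kinetochore attachments. It stood at 120, 121 and 140 CPM in DMSO, 210, 208 and 258 under prexasertib, 68.7, 67.9 and 84.7 under 5-Ph-IAA, and 120, 122 and 136 under the combination. The libraries with both drugs overlapped those in DMSO. KIF2C rose 1.77-fold with prexasertib (0.83 ± 0.108, adjusted p = 0.000745) and fell to 57.9% with 5-Ph-IAA (-0.79 ± 0.109, adjusted p = 0.000252). Its 2 single-drug log2 fold changes were thus of nearly equal size and opposite sign, and its level with both drugs was 98.9% of DMSO (-0.02 ± 0.108, 95% interval -0.25 to 0.22, adjusted p = 0.933).

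In all 10 members each drug had a fold change of the same sign with and without the other drug, except that the small value of KIF20B for both drugs against 5-Ph-IAA (0.14) turned to -0.02 without 5-Ph-IAA replicate 3. The effect of 5-Ph-IAA in prexasertib-treated cells was a fall in 9 of 10 members, against 10.4% of all genes called lower, with a median of -0.85. The groups did not overlap in 9 of 10, against 17.6% of all genes. The effect of prexasertib after 5-Ph-IAA was a rise in 6 of 10, against 1.17% of all genes called higher, with a median of 0.65. Here too 9 of 10 did not overlap, against 8.87% of all genes. The 6 called were KIF20A, KIF23, KIF18A, KIF2C, KIF4A and KIFC1, and 0 fell. Under the block these counts were 10 lower (19.9% of all genes) and 8 higher (7.8%), KIF14 and KIF11 joining the 6, with KIF14 at 0.57 (adjusted p = 1.94e-09). Across the 10 members the prexasertib effect without 5-Ph-IAA and that with it, which share no library, had a Pearson r of 0.876, and the 5-Ph-IAA effect without and with prexasertib, which also share none, an r of 0.893. KIF20A had the highest prexasertib effect in both arms and KIF11 was among the 2 lowest in both.

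**Figure D3:**
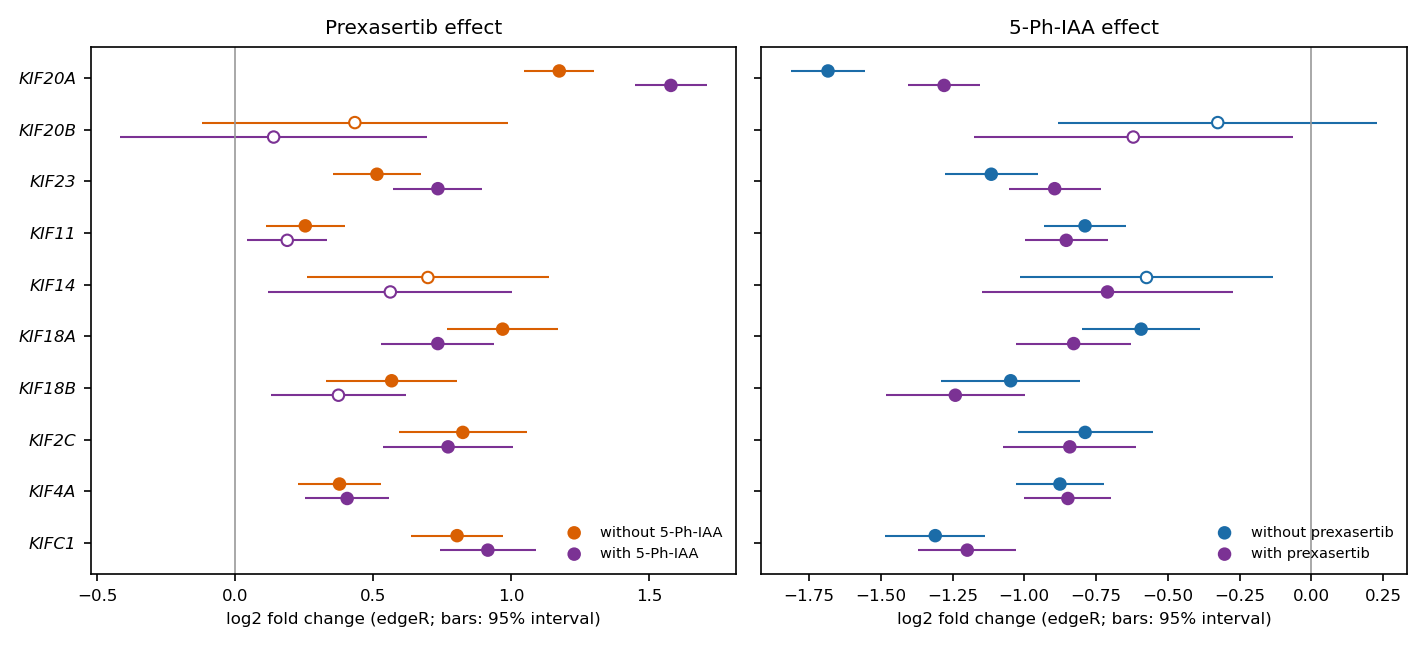
Log2 fold change of each member with its 95% interval, for prexasertib (left) without and with 5-Ph-IAA and for 5-Ph-IAA (right) without and with prexasertib. Filled points passed an edgeR adjusted p under 0.05 and open points did not. All 20 points on the left are positive and all 20 on the right negative, and the KIF20A pair in the left panel stands at 1.17 and 1.58.

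With both drugs together, 5 of 10 members were below DMSO and 0 above it, against 14.2% of all genes called lower, with a median of -0.28. In 6 of 10 all libraries with both drugs lay below all DMSO libraries, against 20.8% of all genes. The block gave 6 lower, adding KIF20B, against 23.5% of all genes. The 5 were KIF23, KIF11, KIF18B, KIF4A and KIFC1. The largest of these falls was that of KIF18B, to 62.7% (-0.67 ± 0.112, adjusted p = 0.000748), followed by KIF11 at 66.0% (-0.60 ± 0.0668, adjusted p = 3.98e-05). KIF4A stood at 72.2% (-0.47 ± 0.0702, adjusted p = 0.00036) and KIFC1 at 76.1% (-0.39 ± 0.0788, adjusted p = 0.00258). The other 5 did not pass the test. KIF20A libraries with both drugs lay just below those in DMSO without overlap, at 93.0% (-0.10 ± 0.0583, adjusted p = 0.212), and its 95% interval of -0.23 to 0.02 holds a loss of this size and no difference. KIF18A was at 110% (0.14 ± 0.0942, 95% interval -0.06 to 0.34, adjusted p = 0.303), and KIF14 at 99.2% (-0.01 ± 0.200, 95% interval -0.45 to 0.43, adjusted p = 0.974).

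The interaction asks whether the effects of the drugs multiply, which on the log2 scale means that they add. It was called for 0 of 10 members and for 0% of all genes by edgeR (519 of 14658 genes and 1 member had an unadjusted p under 0.05). That member was KIF20A, whose rise with prexasertib was larger after 5-Ph-IAA (1.58) than without it (1.17), a difference of 0.40 ± 0.0828 (unadjusted p = 0.000268, adjusted p = 0.786). With the replicate block the same difference of 0.40 had an adjusted p of 0.00155 and was 1 of 55 genes called higher (0.375% of all genes). DESeq2 called 5 genes higher and 1 lower over all genes, and gave KIF20A 0.40 with an adjusted p of 0.00168. The other 9 members had interactions between -0.29 and 0.22, with adjusted p-values of 1 by edgeR.

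Close relatives within subfamilies were then compared with each other. Ratios of counts of 2 genes in the same library do not depend on the scaling between libraries, and 8 were tested (4 pairs, each drug) by an exact two-sided permutation test that kept the arms of the second drug apart, with 400 arrangements and a smallest possible p of 0.005. P-values were adjusted over the 8, and the pairs were chosen with earlier results of these data known. The log2 ratio of KIF20A to KIF23 was -0.32 ± 0.0373 (SD, n = 3) in DMSO, 0.34 ± 0.0694 under prexasertib, -0.89 ± 0.0186 under 5-Ph-IAA and -0.05 ± 0.0675 under the combination. No library of 1 group overlapped those of another. Prexasertib raised that ratio by 0.75 on average over the arms (exact p = 0.005, adjusted p = 0.0133), and 5-Ph-IAA changed it by -0.48 (exact p = 0.005, adjusted p = 0.0133). KIF20A was thus the more strongly moved of this pair with either drug.

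The log2 ratio of KIF20A to KIF20B moved by 1.09 with prexasertib (exact p = 0.01, adjusted p = 0.016) and by -1.03 with 5-Ph-IAA (exact p = 0.005, adjusted p = 0.0133). For KIF20B against KIF23 the shifts were -0.33 with prexasertib (exact p = 0.22, adjusted p = 0.22) and 0.55 with 5-Ph-IAA (exact p = 0.055, adjusted p = 0.0629), with the libraries numbered 3 the lowest of each group. Arranging signs within replicate numbers, the replicate block for these ratios, gave both an exact adjusted p of 0.0417. That test has few arrangements, and both unadjusted p-values were the smallest it can give. The ratio of KIF18A to KIF18B was raised on average over the arms by either drug, by 0.38 with prexasertib (exact p = 0.015, adjusted p = 0.02) and by 0.43 with 5-Ph-IAA (exact p = 0.01, adjusted p = 0.016). For each drug the groups did not overlap in 1 arm and overlapped in the other. Replicates 1, 2 and 3 stood at 0.01, -0.20 and -0.66 with prexasertib and at -0.64, -0.79 and -0.60 in DMSO. In number 3 the ratio was thus lower with prexasertib. In number 1 it was -0.0029 with both drugs and 0.01 with prexasertib alone. The group mean of this ratio went from -0.68 ± 0.0987 (SD, n = 3) in DMSO to 0.13 ± 0.177 with both drugs, beside the larger rise of KIF18A under prexasertib and the larger fall of KIF18B under 5-Ph-IAA. Under the block its adjusted exact p was 0.0625 for each drug.

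**Figure D4:**
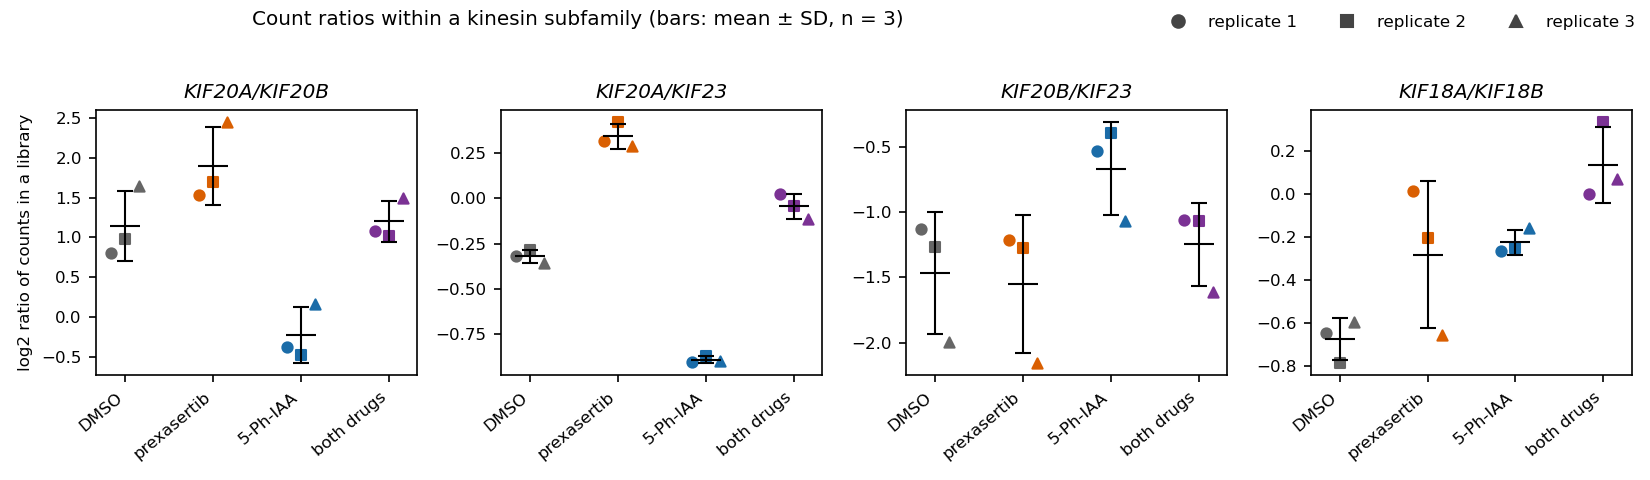
Log2 ratio of the counts of 2 members in the same library, for the 4 pairs of close relatives. Symbols are replicate numbers, and bars are the mean ± SD over 3 libraries. The KIF20A to KIF23 ratio separates all 4 groups, from -0.89 with 5-Ph-IAA to 0.34 with prexasertib.

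The remaining kinesin genes were counted beside the members. Of 33 other kinesin genes, 28 passed the count filter. After prexasertib 1 rose and 0 fell (median -0.13), and after 5-Ph-IAA 4 rose and 5 fell (median -0.10). Over all genes 2.36% rose and 2.37% fell with prexasertib, and 9.65% rose and 12.2% fell with 5-Ph-IAA. The replicate block gave 3 and 8 for prexasertib (8.37% and 9.77% of all genes) and 8 and 10 for 5-Ph-IAA (19% and 23.6%). KIF22, a chromokinesin that pushes chromosome arms outward, was the gene that rose with prexasertib (0.41 ± 0.103, adjusted p = 0.0368), and it fell with 5-Ph-IAA (-0.88 ± 0.104, adjusted p = 7.29e-05). CENPE, the kinetochore motor that brings chromosomes to the metaphase plate, had the largest prexasertib value of all tested kinesins, 1.25 ± 0.366, without passing the test (adjusted p = 0.0914). Its 5-Ph-IAA value was -0.73 ± 0.370 (adjusted p = 0.192). With the block CENPE passed in both, at 1.24 (adjusted p = 5.57e-15) and -0.72 (adjusted p = 2.12e-09). KIF15, which can take over pole separation from KIF11, fell with 5-Ph-IAA (-0.85 ± 0.0946, adjusted p = 4.53e-05), while its prexasertib value was 0.05 ± 0.0928 (adjusted p = 0.877). The fall of KIF4B with 5-Ph-IAA (-1.03 ± 0.328, adjusted p = 0.0391) is uncertain because of its likeness to KIF4A.

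The 4 other kinesins that rose with 5-Ph-IAA were KIF3A, a subunit of the intraflagellar transport motor (0.63 ± 0.111, adjusted p = 0.00128), KIF13B, a transport motor (0.59, adjusted p = 0.00568), KIF7 (0.54, adjusted p = 0.0056) and KIF3B (0.23, adjusted p = 0.0169). The 5 that fell were KIF22, KIF15, KIF4B, KIF1C (-0.74 ± 0.0980, adjusted p = 0.000166) and KIFC3 (-0.31 ± 0.0869, adjusted p = 0.0214). KIF7, KIF3B, KIF1C and KIFC3 were named after their values were seen. KIF2A, a depolymerase and close relative of KIF2C, stood at -0.29 ± 0.0832 with prexasertib (adjusted p = 0.0658) and -0.10 ± 0.0823 with 5-Ph-IAA (adjusted p = 0.441). Under the block KIF2A passed with prexasertib (-0.29, adjusted p = 0.00281), as did KIF13B (-0.38, adjusted p = 0.0038), KIF7 (-0.44, adjusted p = 0.0123), KIF3B (-0.16, adjusted p = 0.0309) and KIFC3 (-0.23, adjusted p = 0.000687), all lower. KIF24, a centriolar relative, stood at -0.06 and -0.02.

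**Figure D5:**
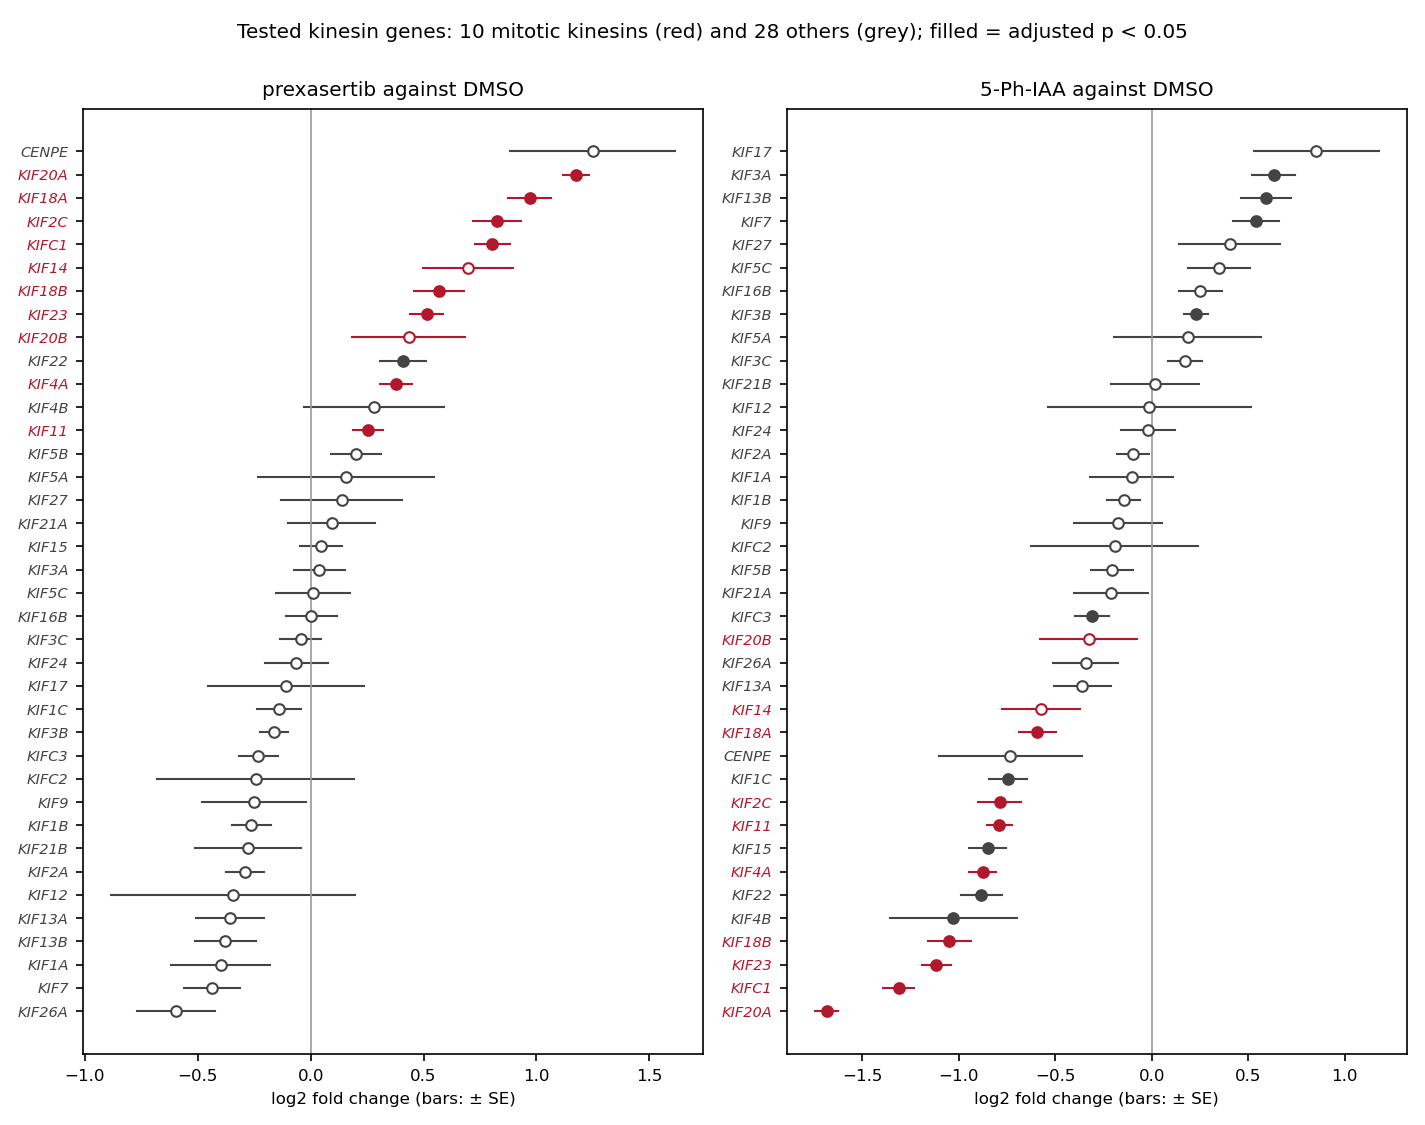
Log2 fold change ± SE of all 38 tested kinesin genes with prexasertib (left) and with 5-Ph-IAA (right), each panel in its own order. The 10 mitotic kinesins are red and the 28 others grey, and filled points passed an adjusted p under 0.05. The red points lie above 0 on the left and below 0 on the right, with KIF20A at 1.17 and -1.68.

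Proteins that load, bind or recruit the members were followed as a list of 14 genes, which shares CENPE with the list of other kinesins. With prexasertib 7 rose and 0 fell (median 0.37), against 2.36% of all genes called higher. With 5-Ph-IAA 11 fell and 0 rose (median -0.76), against 12.2% of all genes called lower. The block gave prexasertib counts of 11 higher and 1 lower (8.37% and 9.77% of all genes). AURKB, BIRC5, CIT and CENPE were added above and CDK1 below, genes that are named for the change of their call. TPX2, which brings spindle motors and Aurora A to microtubules, rose with prexasertib (0.63 ± 0.0610, adjusted p = 7.63e-05) and fell with 5-Ph-IAA (-1.01 ± 0.0615, adjusted p = 4.8e-07). RACGAP1, the partner of KIF23, rose with prexasertib (0.59 ± 0.0777, adjusted p = 0.000824), a value close to the 0.51 of KIF23 itself. PLK1, a kinase that KIF20A docks at the midzone, fell with 5-Ph-IAA (-1.28 ± 0.0870, adjusted p = 9.88e-07).

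Transcripts of the known regulators were followed as a list of 7. With prexasertib, 1 of 7 was called, LIN54, and it was lower (-0.60 ± 0.154, adjusted p = 0.04), against 2.37% of all genes called lower. MYBL2, which encodes B-MYB, stood at -0.10 ± 0.164 with prexasertib (adjusted p = 0.845) and -0.42 ± 0.164 with 5-Ph-IAA (adjusted p = 0.0918), the latter passing under the block (-0.41, adjusted p = 3.88e-08). FOXM1 fell with 5-Ph-IAA (-0.43 ± 0.0909, adjusted p = 0.00479), as did RBBP4, a histone-binding MuvB subunit (-0.40 ± 0.0951, adjusted p = 0.00842). These were the 2 of 7 called with 5-Ph-IAA, against 12.2% of all genes called lower. FOXM1 stood at 0.13 with prexasertib (adjusted p = 0.552). The MuvB subunits LIN9, LIN37 and LIN52 lay between -0.11 and 0.12 with either drug alone and were not called.

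Genes of S phase were followed beside the kinesins, since the cells had been released from a thymidine block. Of 14 such genes, 9 fell and 0 rose with 5-Ph-IAA (median -0.60), against 12.2% of all genes called lower. That is the same direction as the kinesins. With prexasertib 1 rose, PCNA (0.33 ± 0.0767), and 1 fell, CDC6 (-0.84 ± 0.121), against 2.36% of all genes called higher and 2.37% lower. The prexasertib median of these genes was -0.21, whereas the kinesin median was 0.63. The distribution of cells over the cell cycle was not measured in these files, and its part in the kinesin values was not tested.

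The genes most like the members were sought over the 12 libraries, by the Pearson r of their log2 CPM with the mean centred profile of the 10 members, among 10321 genes whose mean log2 CPM reached 3. The 6 closest were TPX2 (0.997), NCAPD2 (0.994), SPAG5 (0.992), PRC1 (0.989), SFPQ (0.989) and TACC3 (0.989). TPX2, SPAG5, PRC1 and TACC3 encode spindle proteins and NCAPD2 a condensin subunit, while SFPQ encodes a splicing factor. TACC3 had the largest 5-Ph-IAA value of the 6, at -1.21 ± 0.0637 (adjusted p = 2.93e-07), and NCAPD2 the largest prexasertib value, at 0.67 ± 0.0606 (adjusted p = 6.58e-05). PRC1, the bundling protein that KIF4A and KIF14 bind, moved by 0.33 and -0.65, less than most of the motors. The 12 points share the 4 groups and the libraries numbered 3, so these values rank likeness of pattern and no more.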

How the data were processed

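Libraries were directional after poly(A) selection, per the labels' protocols. The authors deposited 1 table of unnormalized read counts per gene ID. The submitters' processing notes list hg38, featureCounts 2.0.8 and limma 3.58.1. For the chromatin samples they list Bowtie2 2.5.3 and deepTools 3.5.4. The RNA aligner, annotation and strand setting were not given in the sources used here. Of 28395 gene IDs, 27745 matched the RefSeq gene table. From these counts edgeR 4.0.16 (R 4.3.3) kept 14658 genes by filterByExpr (minimum count 10, minimum total 15), scaled by TMM, fitted group terms to all 12 libraries and ran robust quasi-likelihood tests, Benjamini-Hochberg adjusted over all genes and called under 0.05. CPM used TMM-adjusted library sizes, log2 CPM a prior count of 2 and ratios a pseudocount of 2. The SE is the log2 fold change divided by the square root of F. Same-numbered libraries deviated together in 18 of 18 pairs of same-numbered libraries (r 0.22 to 0.633, all over the threshold of 0.1). The replicate block therefore took the numbers as pairs, a choice that rests on the data and not on the labels. The block was an alternative only. The main edgeR fit and the main ratio tests did not use the numbers, so their p-values and SE leave this pairing out. The 12 pairs that joined numbers 1 and 2 also exceeded 0.1 (0.196 to 0.366), so the data set number 3 apart and do not tell number 1 from number 2. Alternatives were the replicate block, other scalings, DESeq2 1.42.0, limma-voom, other filters, only the groups compared, and libraries left out. Scripts were tested on simulated data. Named were all 10 members, 6 other kinesins, the 2 largest called changes of other kinesins and the 2 smallest adjusted p-values of partners per direction and drug, all regulators and the 6 genes most alike. The members, the lists and the pairs compared by ratio were chosen with earlier results of these data known.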

Additional observations from a re-analysis of the deposited data

Results flagged for a closer look

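The effect of prexasertib on KIF20A differed between cells without and with 5-Ph-IAA by a log2 interaction of 0.40 with the replicate block (edgeR adjusted p = 0.00155) and of 0.40 by DESeq2 without it (adjusted p = 0.00168). The edgeR test without the block gave the same size with an adjusted p of 0.786. Within each replicate number the rise of KIF20A was 1.16 to 1.20 when 5-Ph-IAA was absent and 1.56 to 1.60 when it was present, so the direction held in 3 of 3 numbers.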

How the results depend on the processing

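Of 1250 values that 60 member fold changes took under the alternatives, 1185 kept their direction and their side of the threshold, 19 lost a call, 27 gained one and 19 changed sign. Those 19 were never called. For both drugs against DMSO, KIF14 moved to 0.091 and KIF2C to 0.088 with library size as the only scaling, and to 0.012 and 0.0080 with a stricter filter. Without the 4 libraries numbered 3, KIF2C moved to 0.0015 in that comparison and to 0.0066 in the interaction. With 1 library left out, both drugs against DMSO ranged from -0.16 to 0.11 for KIF14 and from -0.067 to 0.058 for KIF2C, and both drugs against 5-Ph-IAA from -0.019 to 0.26 for KIF20B. The interactions ranged from -0.34 to 0.0070 for KIF14, from -0.13 to 0.057 for KIF2C and from -0.026 to 0.066 for KIF4A.

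Leaving out 1 library gave 7 to 8 members higher with prexasertib, 8 to 9 lower with 5-Ph-IAA, 8 to 10 lower for both drugs against prexasertib, 6 higher against 5-Ph-IAA and 5 lower against DMSO. In that order, the shares of all genes called were 1.23% to 2.58%, 8.43% to 13.3%, 7.46% to 10.9%, 0.686% to 1.36% and 10.6% to 15%. Without the 4 libraries numbered 3 the member counts were 10, 10, 10, 8 and 6, against 7.2%, 19.3%, 17.4%, 6.18% and 20.1% of all 14730 genes. The interaction was called for 1 member, KIF20A, with the replicate block, with DESeq2 and without the libraries numbered 3, and for 0 otherwise. The replicate block changed no other call of a member than those given beside the results. The prexasertib call of KIF11 was also lost with library size as the only scaling (adjusted p = 0.0599), without a count filter (0.102) and with only the groups compared (0.0964). The call of KIF14 for both drugs against prexasertib was lost with library size (0.0864) and without a filter (0.07). Other kinesins called with prexasertib numbered 3 higher and 8 lower with the block, against 1 and 0 without it, and partners 11 higher against 7. Over all genes the block called 8.37% higher and 9.77% lower with prexasertib, against 2.36% and 2.37% without it.

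The log2 ratio of KIF20B to KIF23 passed with the replicate block (-0.33 with prexasertib, 0.55 with 5-Ph-IAA), and that of KIF18A to KIF18B no longer passed with it (0.38 and 0.43). The block test of ratios has few arrangements, so that 1 difference of opposite sign for each drug was enough for KIF18A to KIF18B to miss the threshold. With 1 library left out these ratios ranged from -0.47 to -0.18 and 0.40 to 0.65, and from 0.30 to 0.47 and 0.34 to 0.51. The KIF20B to KIF23 ratio passed for 5-Ph-IAA without prexasertib replicate 1 (0.64) or both-drug replicate 3 (0.64), and the KIF18A to KIF18B ratio did not pass for prexasertib without DMSO replicate 2 (0.35). The cause of these changes was not tested. The members had at least 538 counts in a library, and the effect of depth was not tested.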
